A study of Mus musculus with 37 samples.

Results

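The Notch genes of the segmentation clock were followed in RNA-seq of mouse tailbuds. They are Dll1 and Dll3 (ligand genes), Notch1 (receptor), Lfng (receptor modifier), Nrarp (feedback inhibitor) and the transcriptional repressors Hes7, Hes1, Hes5, Hey1 and Heyl. These 10 genes were chosen by symbol among the 35542 genes of the count table. Somites form in pairs from the presomitic mesoderm of the tailbud, each time that a wave of gene expression has swept forward through the tissue. Notch ligand on one cell binds the receptor on its neighbour, which is then cleaved, and the released receptor fragment joins the DNA-binding protein RBPJ to switch on targets such as Hes7 and Lfng. HES7 then represses its own gene and Lfng, a loop that is part of the clock, and an embryo dissected at a given moment is caught at one phase of the cycle.

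The study asked whether SMCHD1, a chromatin repressor that the oocyte supplies, shapes gene expression along the body axis. Tailbuds of 37 C57BL/6/Cast F1 embryos of E8-8.5, with 6 to 11 somites, were sequenced singly. The 21 control embryos (wt) were Smchd1[fl/+] and came from Smchd1 fl/fl dams that did not carry the Cre transgene, and the 16 maternally deleted embryos (matdel) were Smchd1[del/+] from Smchd1 del/fl dams with Cre under the MMTV promoter, which deletes the floxed allele in the oocyte here, and sires of both were Castaneus. The deleted embryos thus lacked the oocyte supply and also carried 1 deleted zygotic copy, and these cannot be told apart. At 6 somites there were 4 embryos of each genotype, at 7 and at 10 somites 4 wt and 3 matdel, and at 8, 9 and 11 somites 3 wt and 2 matdel. There were 24 females and 13 males, and all 8 embryos at 6 somites were female. The tissue was cut below the last formed somite.

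Library totals ran from 916444 to 80579115 counts, with a median of 12845991, and matdel replicate 3 at 6 somites was the shallowest. Smchd1 itself lay between 104 and 204 CPM (counts scaled to a common library size) in the wt embryos and between 64.1 and 113 CPM in the matdel embryos. The tailbud genes T, Cdx2, Nkx1-2, Tbx6 and Msgn1 were counted in all 37 embryos, whereas Mesp2, a gene of the forming somite boundary, had a median of 0.126 CPM, and the sclerotome gene Pax1 was at 0 in all 37. Somite markers summed to 26.4 CPM at most in wt and reached 166 CPM in matdel replicate 2 at 6 somites, which with replicate 1 of that group also held the most ribosomal RNA counts (1.82% and 2.77%, against 0.176% to 1.28% elsewhere). Bulk tissue cannot tell fewer cells of a type from less RNA per cell.

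The promoters of Hes7, Lfng and Nrarp are shown because these 3 genes varied together between embryos, as described further on. Other genes of the 10, such as Dll1, varied with them as well. Each is 300 bases of mouse build GRCm38.p6 from RefSeq, from 250 bases before to 50 after the start, written along the gene's own strand (all +). They lie at chr11:69120203-69120502 for Hes7, chr5:140607091-140607390 for Lfng and chr2:25180508-25180807 for Nrarp. Capitals mark 3 motifs found on either strand, namely the RBPJ core TGGGAA, the E-box CACGTG and the N-box CACNAG, to which HES-family repressors can bind.
Hes7: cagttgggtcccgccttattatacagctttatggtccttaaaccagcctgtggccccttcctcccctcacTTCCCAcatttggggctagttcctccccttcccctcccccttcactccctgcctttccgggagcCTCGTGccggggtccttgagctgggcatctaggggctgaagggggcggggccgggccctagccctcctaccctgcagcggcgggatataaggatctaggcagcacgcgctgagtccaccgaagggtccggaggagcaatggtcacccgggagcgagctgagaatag
Lfng: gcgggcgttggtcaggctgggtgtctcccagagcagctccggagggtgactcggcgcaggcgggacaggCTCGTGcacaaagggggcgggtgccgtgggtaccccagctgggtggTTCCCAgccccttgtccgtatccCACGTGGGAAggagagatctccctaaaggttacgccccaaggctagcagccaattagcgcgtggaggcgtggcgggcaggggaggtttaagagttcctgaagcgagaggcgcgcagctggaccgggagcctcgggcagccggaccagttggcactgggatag
Nrarp: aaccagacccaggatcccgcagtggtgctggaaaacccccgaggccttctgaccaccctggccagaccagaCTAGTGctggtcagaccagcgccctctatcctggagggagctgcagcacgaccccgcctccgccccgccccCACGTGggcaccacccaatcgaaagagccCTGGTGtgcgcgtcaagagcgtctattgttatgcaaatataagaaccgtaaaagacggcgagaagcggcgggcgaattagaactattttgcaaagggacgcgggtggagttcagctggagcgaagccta
The Hes7 promoter held 1 RBPJ core and 1 N-box. In Lfng there were 2 RBPJ cores, 1 E-box and 1 N-box, and the second core shared 2 bases with the E-box. Nrarp held 1 E-box and 2 N-boxes and no RBPJ core in this window. These letters are common, since the RBPJ core occurred in 25.6%, the E-box in 7.15% and the N-box in 42.5% of 32851 promoters of this length. Promoters were matched for 7 of the 10 genes, without Hes1, Hey1 and Heyl. Of those not printed, the promoters of Dll1, Dll3 and Notch1 held no RBPJ core, and that of Hes5 held 2. Whether these motifs bear on the co-variation was not tested.

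Per kilobase of exon, Nrarp was the highest of the 10 and Heyl the lowest. The mean over 37 embryos was 27.9 ± 12.5 CPM per kilobase (SD) for Nrarp, 24.3 ± 6.82 for Dll1, 22.4 ± 5.94 for Hes1, 18.4 ± 5.78 for Hes7 and 14.1 ± 3.95 for Dll3. The mean was 12.03 ± 3.08 CPM per kilobase for Hey1, 8.46 ± 3.25 for Lfng, 4.68 ± 2.24 for Hes5, 3.95 ± 1.06 for Notch1 and 0.124 ± 0.0861 for Heyl. Neighbours in this order often changed places: Nrarp was above Dll1 in 22 of 37 embryos, Dll1 above Hes1 in 24, and Hes5 above Notch1 in 21. Notch1 was above Heyl in all 37. The Notch1 value was taken over an exon union of 14232 bases from 11 transcripts, which lowers it if the shorter ones prevail.

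**Figure D1:**
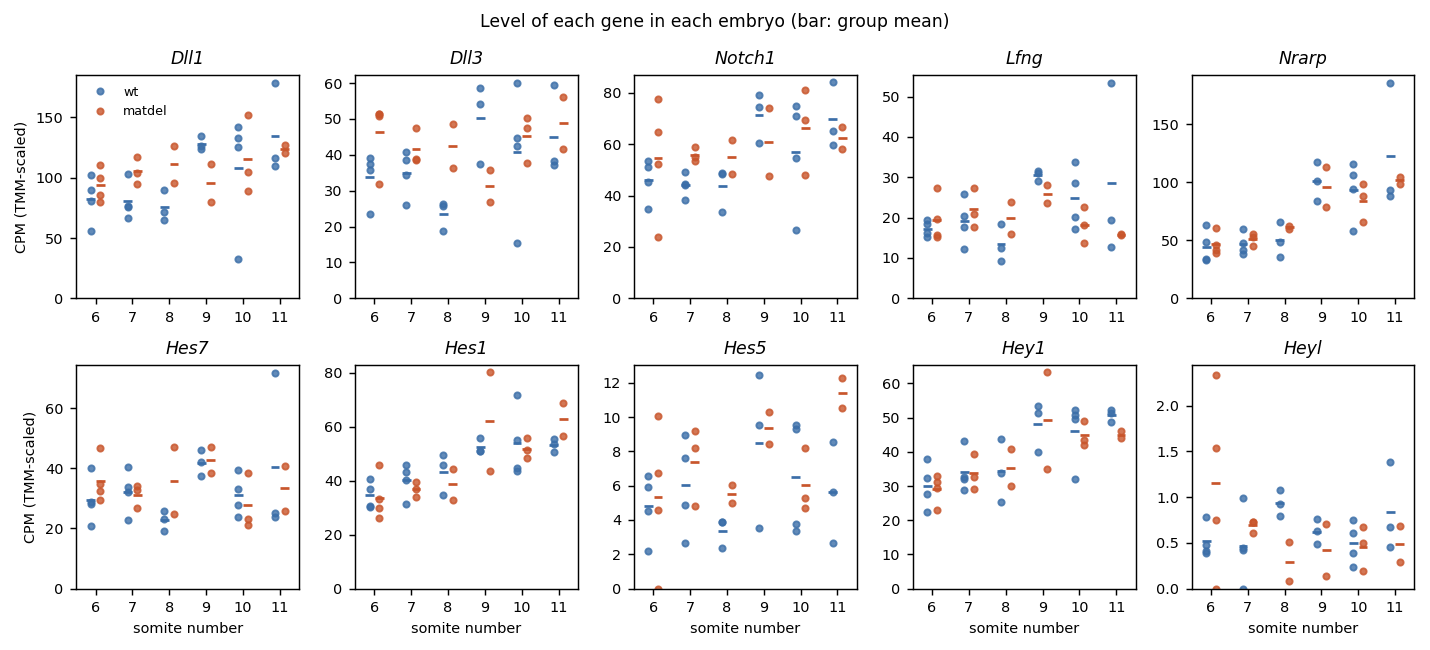
CPM of each gene (vertical axes, each from 0) against somite number, with 1 point per embryo, wt in blue and matdel in orange, and short bars for group means. Nrarp climbs from 33.2 to 62.8 CPM in the 6-somite wt embryos to 88.1 to 185 CPM at 11 somites, while the genotypes overlap at most stages.

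Some counts may be shared with overlapping genes on the other strand, since libraries came from either a stranded or an unstranded kit and the strand setting of the counting was not given in the sources used here. The antisense gene Gm38287 covers 79.4% of the Nrarp exon, Gm20421 31.8% of the exons of Hes5, A930024N18Rik 20.5% of those of Dll1, and 9130213A22Rik 12.9% of those of Hes7. For Notch1, 7.50% of the exons lie under 0610009E02Rik and 2.91% under Gm13568.

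Among the controls, Nrarp, Hes1 and Hey1 rose with somite number and no gene of the 10 fell. They are 3 of the 9 genes tested (Heyl was too low), against 3.13% of 15148 genes rising and 6.64% changing in either direction. Nrarp (chr2:25180758-25183339, +), whose product destabilises the active Notch complex and is itself a Notch target, was at 48.5, 33.5, 62.8 and 33.2 CPM in the 4 wt embryos at 6 somites. It was at 41.6, 38.4, 60.0 and 47.3 CPM at 7 somites, and at 35.8, 65.7 and 48.5 CPM at 8 somites. From 9 somites on it stood higher, with 83.5, 101 and 118 CPM at 9 somites, 57.7, 106, 93.9 and 115 CPM at 10, and 88.1, 185 and 93.5 CPM at 11. Apart from wt replicate 1 at 10 somites, every wt embryo of 9 or more somites was thus above every wt embryo of 8 or fewer. The slope for Nrarp was 0.31 log2 units per somite (SE 0.05), with an adjusted p of 1.6e-04 in the quasi-likelihood test of edgeR after Benjamini-Hochberg adjustment. Gm38287, which shares most of the Nrarp exon, had a slope of 0.30 (SE 0.04), so which strand carried the rise was not tested.

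Hes1 (chr16:30064384-30067796, +), a Notch target and repressor of the same family as Hes7 that is active in many tissues, had a slope of 0.13 log2 units per somite in wt (SE 0.03, adjusted p = 0.00479, edgeR). Its group means went from 34.6 ± 5.03 CPM (SD, n = 4) at 6 somites to 43.2 ± 7.75 (n = 3) at 8 and 53.2 ± 2.50 (n = 3) at 11. Hey1 (chr3:8663359-8667256, -), a related repressor also prominent in blood vessels, had a slope of 0.15 (SE 0.03, adjusted p = 0.00534, edgeR) and means of 30.1 ± 6.70 CPM (n = 4) at 6 somites and 50.8 ± 1.81 (n = 3) at 11. Of 6 endothelial markers, 2 rose in wt (Cdh5 and Tie1, slopes 0.16 and 0.18), and between embryos of a group Hey1 had r = 0.12 with the endothelial list (rho = 0.09, adjusted p = 0.630, permutation test, n = 37). With scores of presomitic mesoderm, neural and somite markers as covariates, only Nrarp of the 3 stayed past the threshold (slope 0.23, adjusted p = 0.00394, edgeR). Hes1 then had a slope of 0.10 (adjusted p = 0.0808) and Hey1 of 0.11 (adjusted p = 0.0692, edgeR), so all 3 slopes were smaller and still positive.

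The ligand and receptor genes rose less clearly. Dll1 (chr17:15367354-15376872, -), the activating ligand of the presomitic mesoderm, had a slope of 0.14 (SE 0.05, adjusted p = 0.0825) and Notch1 (chr2:26457903-26516663, -) of 0.13 (SE 0.04, adjusted p = 0.0685, edgeR). DESeq2 called Notch1 (0.13, adjusted p = 0.0295) besides the 3 above. Without wt replicate 1 at 10 somites 5 of the 10 genes passed, among 1920 of 15333 genes, with Dll1 at 0.17 (adjusted p = 0.00175) and Notch1 at 0.15 (adjusted p = 0.00417, edgeR). Dll1 also passed without wt replicate 3 at 7 somites (adjusted p = 0.0496, edgeR). The slope of Lfng was 0.16 (SE 0.06, adjusted p = 0.136), that of Dll3 0.09 (SE 0.05, adjusted p = 0.345), that of Hes7 0.07 (SE 0.05, adjusted p = 0.490) and that of Hes5 0.06 (SE 0.09, adjusted p = 0.730, edgeR). In female embryos alone Lfng passed (0.20, adjusted p = 0.0495, edgeR).

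In the matdel embryos the same 3 genes passed, 3 of 10 against 1.93% of 15477 genes rising and 3.07% changing in either direction. Nrarp was at 39.2, 41.4, 45.9 and 60.3 CPM at 6 somites, 55.8, 45.4 and 52.9 at 7, 59.6 and 62.6 at 8, 78.6 and 113 at 9, 66.0, 87.8 and 98.7 at 10, and 105 and 98.7 at 11. All 7 embryos of 9 or more somites were above all 9 younger ones, the nearest values being 66.0 and 62.6 CPM. The share of all genes split in this way, in matdel or in wt, was not counted. The Nrarp slope was 0.26 (SE 0.03, adjusted p = 2.09e-04), beside 0.20 (SE 0.04, adjusted p = 0.00629) for Hes1 and 0.15 (SE 0.04, adjusted p = 0.0405, edgeR) for Hey1. The Hey1 call was lost when any of 11 embryos was left out (adjusted p up to 0.104, edgeR). Lfng had a slope of -0.03 (SE 0.05) and Hes7 of -0.00 (SE 0.05). No gene's slope differed between genotypes at an adjusted p below the threshold (0 of 10, and 0% of 15978 genes, edgeR). The unadjusted p was under 0.05 for Lfng (difference -0.19, SE 0.08) and Heyl (-0.41, SE 0.16), with 3.92% of all genes at that level.

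**Figure D2:**
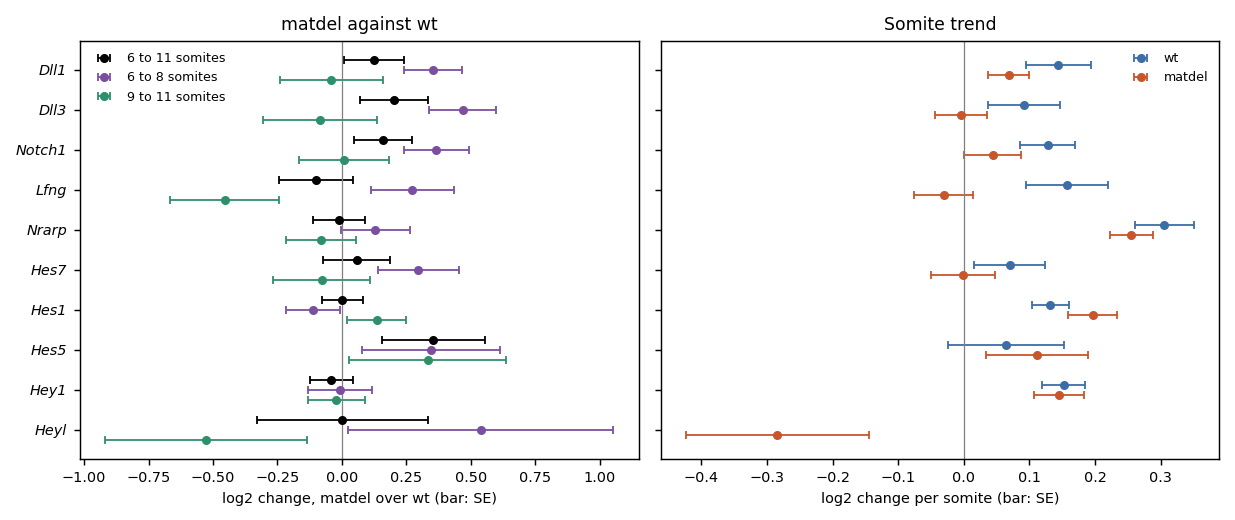
Left, log2 change of matdel over wt for each gene over all stages (black), at 6 to 8 (purple) and at 9 to 11 somites (green); right, log2 change per somite in wt (blue) and matdel (orange), bars being standard errors. Nrarp has the steepest slopes, 0.31 and 0.26, and Dll3, Notch1 and Dll1 sit at 0.47, 0.37 and 0.35 in the early window without passing the adjusted threshold. Heyl has no wt slope because it was too low to test.

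Maternal deletion did not shift any of the 10 genes past the threshold over all stages (0 of 10, against 0.0125% or 2 of 15978 genes, edgeR). Their changes ran from -0.10 for Lfng (SE 0.14) to 0.36 for Hes5 (SE 0.20), with a median of 0.03 against -0.00 for all genes, and none had an unadjusted p under 0.05 (5.67% of all genes did), and DESeq2 called 0 of 10. Hes7 changed by 0.06 (SE 0.13), Nrarp by -0.01 (SE 0.10) and Hes1 by 0.00 (SE 0.08).

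At 6 to 8 somites the ligand and receptor genes were at higher values in matdel, without passing the adjusted test (0 of 10, against 0.00639% of 15652 genes). Dll3 (chr7:28293553-28302238, -), a divergent ligand that dampens Notch signalling within the cell, was at 37.5, 23.5, 39.1 and 35.8 CPM in wt and 51.3, 32.0, 51.3 and 50.7 CPM in matdel at 6 somites. At 7 somites it was at 38.6, 26.0, 40.9 and 34.3 CPM in wt against 47.6, 38.7 and 38.8 CPM in matdel, and at 8 somites at 25.7, 26.3 and 18.8 CPM against 36.4 and 48.6 CPM. The ranges were apart only at 8 somites. The difference was 0.47 for Dll3 (SE 0.13, adjusted p = 0.390), 0.37 for Notch1 (SE 0.12, adjusted p = 0.486) and 0.35 for Dll1 (SE 0.11, adjusted p = 0.471, edgeR), and these 3 had an unadjusted p under 0.05, as did 7.77% of all genes. Without a filter on low counts Dll3 passed (adjusted p = 0.0466, edgeR), as 1 of 39 genes called among 23455. For Hes7 the difference was 0.30 (SE 0.16) and for Lfng 0.27 (SE 0.16).

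The order was turned at 9 somites. Dll3 was at 58.7, 37.5 and 54.2 CPM in wt and 35.8 and 26.9 CPM in matdel at 9 somites, so that matdel was below wt, as it was for Dll1 at that stage (124, 135 and 127 CPM against 80.1 and 112 CPM). At 10 and 11 somites the ranges of both genes overlapped between genotypes, with Dll3 means of 40.7 and 44.9 CPM in wt and 45.1 and 48.9 CPM in matdel. Lfng (chr5:140607320-140615545, +), a glycosyltransferase gene that alters how Notch answers its ligands, was at 31.1, 29.1 and 31.6 CPM in wt against 23.8 and 28.0 CPM in matdel at 9 somites. Its values were 17.2, 20.2, 33.8 and 28.7 CPM against 13.8, 18.2 and 22.7 CPM at 10 somites, and 19.3, 53.3 and 12.9 CPM against 15.6 and 15.9 CPM at 11. The late difference for Lfng was -0.46 (SE 0.21, adjusted p = 0.9998, edgeR), with wt replicate 2 at 11 somites far above the rest. Lfng alone had an unadjusted p under 0.05, as had 1.88% of all genes. No gene of the 10 passed (against 0.00635% of 15757 genes), and none did for the difference between the early and late windows (0% of 16265 genes), where Lfng had -0.71 (SE 0.27) and Dll3 -0.55 (SE 0.26) at unadjusted p under 0.05, as had 3.55% of all genes.

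Stage by stage, no gene of the 10 passed at any of the 6 stages (0% of all genes tested at each, edgeR). The ranges of the genotypes were apart for 0 of 10 genes at 6 somites (3.38% of all genes), 1 at 7 (5.70%), 4 at 8 (15.8%), 3 at 9 (13%), 0 at 10 (1.96%) and 3 at 11 somites (26.7%). At an unadjusted p under 0.05 there were 0 genes at 6 somites (5.54% of all genes), 2 at 7 (Notch1 and Dll1, 4.83%), 3 at 8 (Dll3, Dll1 and Hes7, 2.81%), 2 at 9 (Dll3 and Dll1, 1.15%), 0 at 10 (0.56%) and 1 at 11 (Hes5, 8.66%), and DESeq2 called none at its adjusted threshold either. With 2 matdel embryos at 8, 9 and 11 somites such separations are frequent among all genes. Sex was fully matched only at 6 somites, and the fits at a single stage had no sex term. The wt embryos were 2 males and 1 female at 8 somites, and 1 male and 2 females at 9. All matdel embryos of these 2 stages were female. At 10 somites there were 1 male and 3 females in wt against 2 males and 1 female in matdel. Without the filter on low counts, Dll3 passed at 8 somites (0.86, adjusted p = 0.00507), and Lfng (-0.87, adjusted p = 8.16e-04) and Hes5 (1.02, adjusted p = 0.00892, edgeR) at 11 somites. That setting called 186 of 21448 genes at 8 somites and 172 of 21228 at 11, against 0 with the filter.

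Sex did not move any of the 10 past the threshold (0 of 10, against 0.219% of 15978 genes, edgeR). Lfng (-0.40, SE 0.17), Dll1 (-0.32, SE 0.14) and Nrarp (-0.31, SE 0.12) were at lower values in males at an unadjusted p under 0.05, with 3.30% of all genes at that level in either direction.

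Embryos of the same genotype and stage differed in these genes. The biological coefficient of variation, the spread left after counting error, had a median of 25.2% over the 10 genes against 17.7% over 15978 genes and 14.4% over the 11209 genes of at least 5 CPM. It was 29.1% for Lfng and 27.1% for Hes7, 25.6% for Dll1, 24.7% for Dll3, 23.6% for Notch1 and 23.2% for Nrarp. Hey1 (18.6%) and Hes1 (16.8%) varied least, while Hes5 (40.6%) and Heyl (38.7%) varied most and were the lowest in counts. Hes5 (chr4:154960923-154962371, +), chiefly a repressor of the neural lineage, had 0 counts in matdel replicate 3 at 6 somites, the shallowest library, which allows up to 3.28 CPM. Its deviations followed depth (r = 0.78, adjusted p = 0.0158, permutation test, n = 37; rho = 0.67 and r = 0.57 without the 2 farthest embryos). Heyl (chr4:123233556-123249875, +), a repressor of later somites and vessels, reached 2.33 CPM at most, in the embryo with the most somite marker counts.

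Hes7 (chr11:69120404-69124055, +), the core repressor of the clock, shows how wide the spread was within a stage. In wt it was at 28.2, 20.9, 40.1 and 28.9 CPM at 6 somites, 32.2, 33.8, 40.5 and 22.7 CPM at 7, and 23.1, 25.8 and 19.2 CPM at 8. It was at 37.5, 42.1 and 46.1 CPM at 9, 23.8, 33.1, 39.6 and 27.9 CPM at 10, and 25.2, 71.9 and 23.8 CPM at 11. The matdel embryos had 32.6, 29.6, 35.0 and 46.7 CPM at 6 somites, 34.0, 26.7 and 32.8 at 7, 24.7 and 47.2 at 8, 38.4 and 47.1 at 9, 21.3, 23.3 and 38.4 at 10, and 40.8 and 26.0 at 11. One embryo stood out in both Hes7 and Lfng, wt replicate 2 at 11 somites, with 71.9 and 53.3 CPM against 23.8 and 25.2 CPM (Hes7) and 12.9 and 19.3 CPM (Lfng) in its group. In that embryo presomitic mesoderm markers (324 CPM summed) and tailbud markers (1453 CPM) were the highest of the 37 and gut and visceral endoderm markers (92.9 CPM) the lowest. The opposite embryo was wt replicate 1 at 10 somites, with Dll1 at 32.8 CPM, Dll3 at 15.4 CPM and Notch1 at 26.6 CPM, where presomitic mesoderm (82.8 CPM), tailbud (606 CPM) and node and notochord markers (15.1 CPM) were the lowest of the 37. The part of tissue make-up in these values was not tested.

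Across embryos, deviations from the group mean went together for most of the core genes. Of 45 gene pairs, 17 passed (adjusted permutation p, two-sided, deviations permuted within groups 100000 times), all positive, and all 17 also passed by rank correlation. The median r was 0.40 against 0.002 over all pairs of genes of at least 5 CPM, and 20 of 45 pairs (44.4%) reached r of 0.5, as did 8.25% of those pairs. Dll1 and Notch1 had r = 0.75 (rho = 0.74, adjusted p = 0.00135, permutation test, n = 37; r = 0.70 without the 2 farthest embryos), and Dll1 and Dll3 r = 0.73 (rho = 0.53, adjusted p = 0.0197). Among the feedback genes r was 0.71 for Hes7 and Lfng (rho = 0.62, adjusted p = 0.00525), 0.69 for Hes7 and Nrarp (rho = 0.69, adjusted p = 0.00165) and 0.67 for Lfng and Nrarp (rho = 0.64, adjusted p = 0.00427, permutation tests). Hes7, Lfng and Nrarp are the genes whose promoters are printed above. They were not set apart from Dll1, which had r = 0.71 with Nrarp (rho = 0.76, adjusted p = 0.00259) and 0.61 with Lfng (rho = 0.76, adjusted p = 9.0e-04, permutation tests). Nrarp and Hey1 had r = 0.63. By contrast Hes7 had r = 0.01 with Hes1, 0.13 with Hes5 and -0.08 with Heyl. Hes1 and Heyl had r = 0.63 (adjusted p = 0.0120), and 0.58 without wt replicate 1 at 7 somites (adjusted p = 0.0541, permutation tests).

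**Figure D3:**
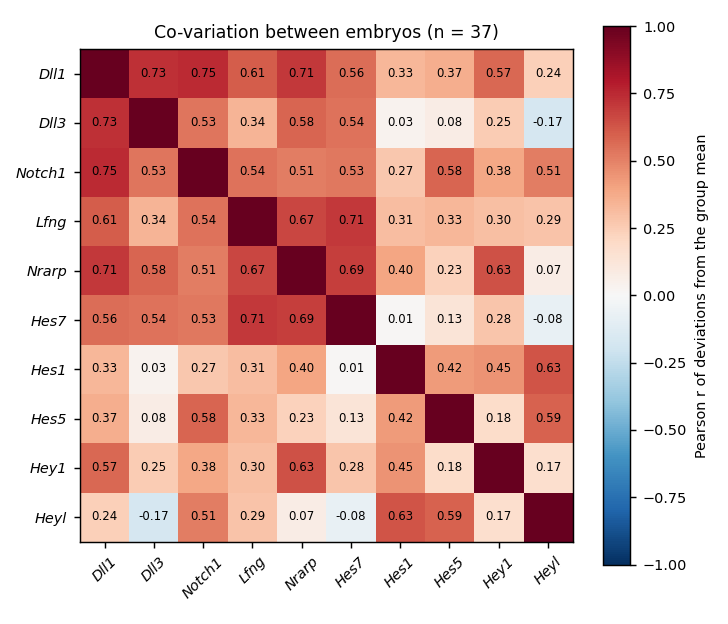
Pearson r of the deviations from the group mean in 37 embryos for each pair of genes, red for positive and blue for negative values. Dll1, Dll3, Notch1, Lfng, Nrarp and Hes7 form a block of r between 0.34 and 0.75, and Hes1, Hes5, Hey1 and Heyl stand partly outside it.

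Within genotypes, 20 pairs passed among the wt embryos and 1, Hes7 and Nrarp (r = 0.69, adjusted p = 0.0288, permutation test), among the matdel embryos. There were 21 wt and 16 matdel embryos, with only 2 matdel at 8, 9 and 11 somites. These counts of calls therefore cannot be compared between genotypes. For Hes7 and Lfng r was 0.71 in wt and 0.73 in matdel (adjusted p = 0.0589 and 0.102, permutation tests). For Lfng and Dll1 r was 0.56 in wt and 0.82 in matdel, and for Dll1 and Notch1 0.85 and 0.75. For Dll1 and Dll3 r was 0.86 in wt and 0.07 in matdel, a difference that was not tested. Leaving out wt replicate 1 at 10 somites ended 4 calls over all embryos, with r falling to 0.41 for Dll1 and Dll3, 0.45 for Nrarp and Dll3, 0.38 for Nrarp and Notch1 and 0.45 for Dll1 and Hey1. The first 3 of these were also lost without wt replicate 2 at 11 somites (adjusted p = 0.0552, 0.0527 and 0.0582), and Dll1 and Dll3 without wt replicate 2 at 6 somites (adjusted p = 0.0659, permutation tests). Removing the presomitic mesoderm marker score left 14 pairs, with r = 0.67 for Hes7 and Lfng. Without wt replicate 1 at 10 somites and wt replicate 2 at 11 somites, an alternative added after seeing the data, 8 pairs passed and r for Hes7 and Lfng was 0.48 (adjusted p = 0.0634, permutation test).

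**Figure D4:**
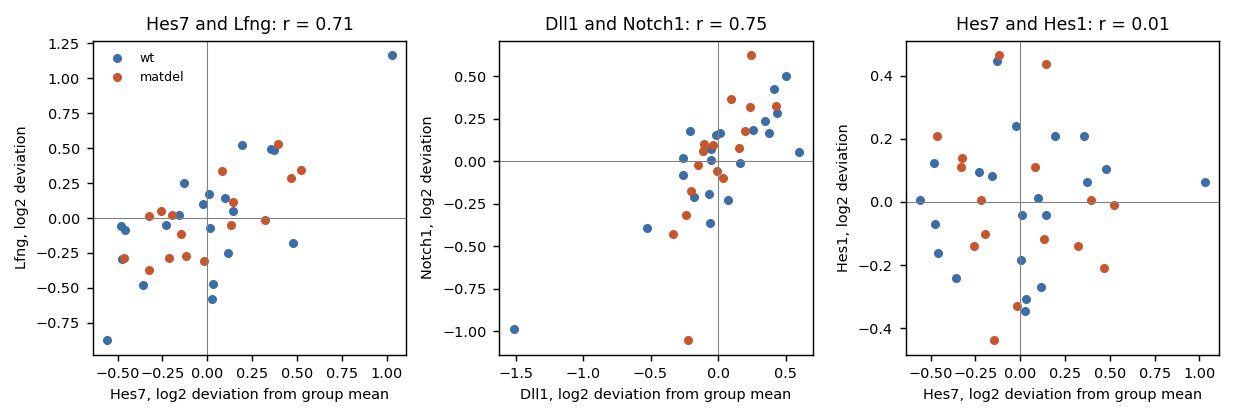
Log2 deviation from the group mean of 1 gene against another in 37 embryos, wt in blue and matdel in orange, with grey lines at 0. Hes7 and Lfng (r = 0.71) and Dll1 and Notch1 (r = 0.75) rise together, each with 1 wt embryo far out and the latter also with 1 matdel embryo low in Notch1 (24.0 CPM), while Hes7 and Hes1 (r = 0.01) do not.

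The genes most like Hes7 among 11209 were 9130213A22Rik (r = 0.84), which overlaps it, then Cnksr3 (0.73), Lfng (0.71), Trim29 (0.70) and Nrarp (0.69). Those most like Lfng were Dusp6 (0.74), an FGF target that dampens ERK signalling, Lrig1 (0.72), Hes7 (0.71), Peg12 (0.69) and Gm38287 (0.67), which overlaps Nrarp. These ranks describe 37 embryos.

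Of 90 relations between the 10 genes and 9 marker lists, 12 passed (adjusted permutation p, 11 positive and 1 negative, 9 of them also by rank). In size, r reached 0.5 in 16 of the 90 (17.8%), as it did in 8.04% of the relations to the same lists of the 11178 genes of at least 5 CPM outside them. Dll1 followed node and notochord markers (r = 0.75, rho = 0.68, adjusted p = 0.00720), Dll3 the tailbud progenitor markers (r = 0.70, adjusted p = 0.0238), Hes7 the same (r = 0.62, adjusted p = 0.0471) and Hes5 the neural markers (r = 0.57, adjusted p = 0.0238, permutation tests). Genes shared lists: Notch1 (r = 0.72), Lfng (0.47), Nrarp (0.52) and Hes7 (0.40) also passed with node and notochord markers. Dll1 passed with presomitic mesoderm (r = 0.66) and neural markers (0.47) too. By rank, Hes7 and Nrarp with node and notochord and Dll1 with presomitic mesoderm did not pass. Heyl followed somite markers (r = 0.74, rho = 0.62, adjusted p = 0.00720, permutation test), with r = 0.58 without the 2 farthest embryos. Only 3 of the 6 somite markers entered that score, the others being too low, and Heyl had a median of 7 counts. Hey1 moved against gut and visceral endoderm markers (r = -0.50, adjusted p = 0.0259, permutation test). The count fell to 4 without wt replicate 1 at 10 somites, without wt replicate 3 or matdel replicate 3 at that stage, or without the 2 shallowest libraries. It was 6 without matdel replicate 3 at 6 somites, and 7 without matdel replicate 4 or wt replicate 2 at 6 somites or without wt replicate 2 at 10 somites.

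Among 51 other genes of the Notch pathway, 48 were tested and none passed the threshold for genotype over all stages. An unadjusted p under 0.05 was seen for 5 of the 48 (5.67% of all genes) and, at 6 to 8 somites, for 4 (7.77% of all genes, edgeR). Among those of smallest p were Notch3 (0.19, SE 0.07) and Hes6 (0.22, SE 0.10), each with adjusted p = 0.867 (edgeR). With somite number in wt, 4 rose and 1 fell, where 3.13% of 15148 genes rose and 6.64% changed in either direction. Those that rose were the receptor gene Notch4 (0.31 log2 units per somite, SE 0.04), the ligand gene Jag2 (0.23, SE 0.06), the target Hey2 (0.21, SE 0.04) and Mfng (0.20, SE 0.04), a relative of Lfng. The corepressor Tle3 fell by 0.08 (SE 0.02). Of 32 Wnt and FGF clock and segmentation genes, 25 were tested for the wt slope, 5 rose (Foxc1 0.26, Dkk1 0.21, Has2 0.14, Dact1 0.13 and Bcl2l11 0.09) and 2 fell (Mesp1 -0.75 and Nkd1 -0.10). None of the 28 tested passed the threshold for genotype over all stages. The smallest p belonged to Pax3 (0.32, SE 0.12), Foxc2 (0.55, SE 0.20) and Sp5 (0.28, SE 0.12), each at adjusted p = 0.867 (edgeR). An unadjusted p under 0.05 was seen for 6 of the 28 (5.67% of all genes) and, at 6 to 8 somites, for 8 of 29 (7.77% of all genes, edgeR).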

How the data were processed

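The authors trimmed reads with Trim Galore 0.4.4 and mapped them with HISAT2 2.0.5 to GRCm38.p6, according to the labels and to the methods of the study, and deposited raw read counts per gene for 37 tailbud libraries. Libraries were made with a stranded or an unstranded mRNA kit, and which library had which was not given in the sources used here. Of 35591 rows, 49 with a repeated identifier were dropped, and 26 gene names turned into dates were restored. A table of log2 values for Hox genes and the authors' own comparison table (p-values, FDRs and fold changes) were not used.

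Groups came from the sample titles. For changes, edgeR 4.0.16 (quasi-likelihood test, TMM scaling, filterByExpr with a minimum count of 10, R 4.3.3) was run on the deposited counts of all genes that passed, with stage and sex as covariates for genotype, and with sex as a covariate for slopes; fits at a single stage had none. The threshold was an adjusted p of 0.05. DESeq2 1.42.0 was an alternative. Levels are TMM-scaled CPM, and deviations are log2 CPM (prior count 2) minus the group mean. Correlations were tested with 100000 permutations within groups, for which the smallest p is 1e-05. Library totals of 916444 to 80579115 counts limit the precision of the low genes. No label says that replicates of a group came from separate litters, so p-values measure the spread between embryos. Scripts were tested on simulated data.

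The 10 genes and the other lists were chosen with earlier results of these data known. The text names all 10 genes, list genes past the threshold for genotype or for the wt slope (at most 6 a direction; where none passes, the 3 of smallest p), and the 5 genes most like Hes7 and Lfng. The antisense genes that overlap the 10, and the marker genes given beside a result, were named after their values were seen. An item that this rule would name is not reported here.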

Additional observations from a re-analysis of the deposited data

Results flagged for a closer look

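In 3 of 40 gene and group combinations with 4 embryos, a value was set apart from the other 3 embryos, where chance flags about 1 in 20. Dll1 was at 32.8 CPM in wt replicate 1 at 10 somites, against 125 to 142 CPM in its group. Hey1 was at 32.1 CPM in the same embryo, against 49.5 to 52.2 CPM. Dll3 was at 32.0 CPM in matdel replicate 2 at 6 somites, against 50.7 to 51.3 CPM. The first embryo had the lowest presomitic mesoderm and tailbud marker sums of the 37, and the second the highest somite marker sum (166 CPM). The part of these in the values was not tested.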

How the results depend on the processing

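For genotype the number of the 10 genes past the threshold stayed at 0, except without a filter on low counts, where it was 1 at 6 to 8 somites, 1 at 8 somites and 2 at 11 somites. For the wt slope it was 6 in female embryos alone, 1 with the marker scores as covariates, and 5 without wt replicate 1 at 10 somites and wt replicate 2 at 11 somites (added after seeing the data), and 3 to 5 with single embryos left out. For the matdel slope it was 1 in females alone. Over all genes, those called for the wt slope numbered 1802 of 14792 in females alone, 471 of 16088 with marker scores, 1521 of 15268 without those 2 embryos and 1920 of 15333 without wt replicate 1 at 10 somites, against 1006 of 15148. For the matdel slope they numbered 175 in females alone, 301 without the libraries of most ribosomal RNA and 1127 by DESeq2, against 475. Without the filter on low counts genotype called 39 genes at 6 to 8 somites (1 with it), 186 at 8 and 172 at 11 somites (0 with it), and DESeq2 called 37, 1 and 14. Of 45 pairs, 8 passed without those 2 embryos and 1 in matdel alone. Relations to marker lists numbered 7 with a prior count of 0.5, 4 without the 2 shallowest libraries, and 4 to 17 with single embryos left out.

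Changes near 0 over all stages took the other sign, none past the threshold. With the replicate block Hes7 was at -0.023 and Nrarp at 0.043. In females alone Lfng was at 0.0074. With both libraries of most ribosomal RNA left out Nrarp was at 0.022, Hes1 at -0.011 and Heyl at -0.30. Without the 2 embryos named above Lfng was at 0.0049, Nrarp at 0.021, Hes1 at -0.011 and Heyl at -0.024. Heyl was at -0.0058 with no sex term and -0.44 with marker scores, under which the Hes5 slope in wt was -0.12. With single embryos left out, Hes7 ran from -0.015 to 0.15, Lfng from -0.16 to 0.0090, Nrarp from -0.045 to 0.039, Hes1 from -0.051 to 0.032 and Heyl from -0.17 to 0.12. The causes were not tested.

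Correlations showed no general pairing of wt and matdel embryos by replicate number: 16 same-numbered pairs had a median of -0.02 (from -0.37 to 0.79), and 42 others -0.00. Above 0.1 were 7 of the 16 and 19 of the 42. At 8 and 9 somites all same-numbered pairs were positive (0.32, 0.46, 0.79 and 0.48). With 2 matdel embryos at each of these stages, their deviations mirror each other, so pairing could not be decided there. With the replicate block the count for the matdel slope was 2 and for the wt slope 3, and the counts for genotype stayed at 0. The pooled SD of Dll1 fell from 0.44 to 0.27 without wt replicate 1 at 10 somites, and that of Hes5 from 1.17 to 0.65 without matdel replicate 3 at 6 somites, the shallowest library.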
